A study of Mus musculus with 366 samples.

Results

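Matrix metalloproteinases, ADAMTS proteases and the tissue inhibitors of metalloproteinases (TIMPs) were followed through the aortas of the Ath-HMDP mice, a panel of F1 animals bred to develop atherosclerosis. The set comprised Mmp2, Mmp3, Mmp9, Mmp14, Adamts1, Adamts7, Timp1, Timp2, Timp3 and Timp4, and its members were found by the gene symbol that the platform annotation gives to each probe set of the array. Of these 10 genes, 9 were measured, through 18 of the 45141 probe sets. Timp4 was not named by the annotation and was not analysed here. A gene with several probe sets was read from the one with the highest mean over all arrays.

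Females of each inbred strain of the panel had been mated with C57BL/6J males carrying the human APOE-Leiden and CETP transgenes, so that every animal measured carried both transgenes and, at each autosomal locus, 1 C57BL/6J allele. C57BL/6J itself was represented by the same cross. All mice were female, were fed chow for 8 weeks and a Western diet for 16 weeks, and were killed at 24 weeks of age. The tissue was whole aorta, taken between the arch and the middle of the abdomen. There were 366 arrays, 1 for each mouse, and the strains were 31 classical inbred strains and the recombinant inbred (RI) sets BXD with 36 strains, AXB/BXA with 21, CXB with 9 and BXH with 4. The RI strains descend from A/J, DBA/2J, C3H/HeJ or a BALB/c strain and from C57BL/6J. Strains with 3 or more arrays numbered 87, with 2 arrays 8, and with 1 array 6.

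Metalloproteinases cut the proteins of the extracellular matrix. Mmp2 and Mmp9 are the gelatinases, which cut denatured collagen and basement membrane collagen. Mmp3, stromelysin 1, cuts proteoglycans, laminin and fibronectin and can activate other metalloproteinases, and Mmp14 is anchored in the cell membrane, where it cuts collagen and activates the proenzyme of Mmp2. Adamts1 cleaves the large proteoglycans versican and aggrecan, and Adamts7 cleaves the cartilage oligomeric matrix protein. The TIMPs bind to the active site of these enzymes. Timp2 has a second role, since it bridges Mmp14 and the Mmp2 proenzyme at the cell surface. Timp3 is held in the matrix and also inhibits several ADAMTS enzymes. In atherosclerotic arteries these enzymes and inhibitors are known to be made by smooth muscle cells, fibroblasts and macrophages.

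Promoter sequences of 7 of the 10 genes were found in RefSeq (assembly GRCm38.p6), each from 250 bases before to 50 bases after the annotated start. They are shown for Mmp3 with Timp1 and for Mmp14 with Timp2, pairs whose strain means were correlated as described further on. Capitals mark matches on either strand to TGANTCA, the letters of an AP-1 site (a palindrome), to TATAAA, the TATA box, or to GGGCGG, a GC box.

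Mmp3, chr9:7445572-7445871, plus strand: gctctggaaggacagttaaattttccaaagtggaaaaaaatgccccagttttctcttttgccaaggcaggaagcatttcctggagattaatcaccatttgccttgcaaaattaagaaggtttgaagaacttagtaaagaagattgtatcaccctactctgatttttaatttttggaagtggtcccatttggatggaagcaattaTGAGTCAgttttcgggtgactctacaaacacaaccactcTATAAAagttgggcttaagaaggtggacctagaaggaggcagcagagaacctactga

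Timp1, chrX:20869916-20870215, plus strand: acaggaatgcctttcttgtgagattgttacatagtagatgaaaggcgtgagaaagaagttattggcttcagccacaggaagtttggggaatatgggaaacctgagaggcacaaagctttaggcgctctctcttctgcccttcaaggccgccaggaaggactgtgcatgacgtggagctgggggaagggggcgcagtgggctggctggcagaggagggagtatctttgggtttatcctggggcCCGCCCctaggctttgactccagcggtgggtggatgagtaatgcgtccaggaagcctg

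Mmp14, chr14:54431348-54431647, plus strand: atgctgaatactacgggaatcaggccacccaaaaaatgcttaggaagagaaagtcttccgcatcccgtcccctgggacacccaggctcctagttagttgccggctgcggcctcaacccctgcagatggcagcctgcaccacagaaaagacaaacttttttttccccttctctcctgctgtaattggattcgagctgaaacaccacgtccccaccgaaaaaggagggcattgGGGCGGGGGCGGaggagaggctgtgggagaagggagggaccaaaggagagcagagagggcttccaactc

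Timp2, chr11:118355362-118355661, minus strand: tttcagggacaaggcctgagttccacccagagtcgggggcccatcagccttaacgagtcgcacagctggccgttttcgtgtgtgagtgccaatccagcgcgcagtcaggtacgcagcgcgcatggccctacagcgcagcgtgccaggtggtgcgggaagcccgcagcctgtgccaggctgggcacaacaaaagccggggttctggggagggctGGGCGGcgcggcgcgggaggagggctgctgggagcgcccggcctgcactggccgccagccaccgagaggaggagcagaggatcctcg

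Mmp3 was the only one of the 7 promoters with TGANTCA, which began 46 bases before the start, and 7.81% of all 32851 promoters of this length hold it. TATAAA was in the promoters of Mmp3 and Adamts1 and in 13.6% of all promoters. GGGCGG was in those of Mmp14, Adamts1, Timp1, Timp2 and Timp3 and in 35.7% of all. The promoter of Timp4 held none of the 3 motifs.

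Values were log2 intensities normalized by RMA, and they cannot be compared between probe sets as amounts of RNA. The arrays had medians of 3.17 to 3.40. In these female mice the 22 probe sets of Y-linked genes give the level of no signal, and their means reached 3.07 at most. Adamts7 averaged 3.11 and thus lay at that level, and a second probe set of Mmp9 averaged 2.82. Smooth muscle markers (7 of 9 measured) averaged 5.81 to 10.3 per array, and brown adipocyte markers (5 of 5) 11.6 to 12.6, although the aortas had been cleaned of fat. Hepatocyte markers (5 of 6) ran from 2.55 to 10.05, and 35 arrays of 25 strains were high in them. In whole aorta, fewer cells of a type and less RNA per cell cannot be told apart.

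All 9 measured genes differed among strains. Mmp3 varied most, over a range of 4.47 log2 units between the lowest and the highest strain mean, and Adamts7 least, over 0.57. The test was limma's F test across the 95 strains with 2 or more arrays (360 arrays), with p-values adjusted after Benjamini-Hochberg across the whole array and called under 0.05. By this test 77.0% of all probe sets differed among strains, so that the calls themselves are not particular to these genes. The share of a gene's variance that lay among strains rather than among mice of one strain was 58.01% for Mmp3 (adjusted p = 6.0e-31), which was above that of 98.5% of all probe sets. It was 47.2% for Mmp2, 42.0% for Timp2, 41.7% for Mmp14, 39.5% for Adamts1, 38.4% for Timp1 and 38.3% for Timp3. Mmp9 followed with 23.9% and Adamts7 with 9.24% (adjusted p = 0.0315), a call that was lost without the 35 arrays high in hepatocyte markers (8.90%, adjusted p = 0.0573) and under 4 other settings. On the second Mmp14 probe set, which averaged 3.65, the share was only 8.48% (adjusted p = 0.0403), and on that of Mmp9 it was 12.1%. The other probe sets of Timp2 had 29.9% to 40.2% and those of Timp3 23.2% to 42.3%. With the probe set of highest mean for each, the median of the 9 genes was 39.5%, against 17.9% over all probe sets and 20.8% over genes read from 1 probe set each.

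Strains were ranked for each gene among the 87 with at least 3 arrays, and their spread is given as SD. The strains at opposite ends were picked by these same values. Here and in the next paragraphs, a lack of overlap between them describes the range and is no test of a difference. Mmp3 was highest in LG/J, where the 4 mice had values of 7.14, 7.81, 7.91 and 8.39. BTBR T<+> tf/J came next with 6.99, 7.03, 7.08 and 8.12, and BXD40/TyJ averaged 6.98 ± 0.43 (SD, n = 4). At the other end stood BUB/BnJ, with 3.12, 3.15, 3.41 and 4.22, and KK/HlJ, with 3.84, 3.88, 3.88 and 3.93. SWR/J averaged 4.11 ± 0.21 (n = 4). No mouse of the 3 highest strains had a value as low as any mouse of the 3 lowest. Strains with 2 arrays extended the low end, since CE/J averaged 3.35 and NOD/ShiLtJ 3.62, so that the strains with the least Mmp3 signal were near the level of the Y-linked probe sets. All of these low strains are classical inbred strains. Of their arrays, 1 of BUB/BnJ, 2 of KK/HlJ, 1 of SWR/J and both of NOD/ShiLtJ were high in hepatocyte markers, whose part was not tested.

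Mmp2 had its highest mean in FVB/NJ, with values of 7.46, 7.91, 8.39 and 8.40, BXD71/RwwJ came next with a mean of 7.82, and SWR/J had rank 3 with 7.63, 7.71, 7.86 and 7.97. FVB/NJ and SWR/J were among the 4 lowest of 87 in Mmp3. All 4 FVB/NJ arrays were high in hepatocyte markers, and the strain was first of 87 in adventitial fibroblast markers (6.96 to 8.00) and rank 82 in smooth muscle markers. The part of these in its Mmp2 and Timp3 values was not tested. The lowest Mmp2 was in BXA16/PgnJ (5.90, 6.02 and 6.23) and in AXB15/PgnJ (6.33, 6.40, 6.45 and 6.50), all below every mouse of FVB/NJ and SWR/J, and C57BLKS/J was the next lowest with a mean of 6.51. Mmp9 spanned only 3.98 to 4.89 between strain means. It was highest in BXD51/RwwJ (4.88 ± 0.46, n = 3), BXD20/TyJ and BXD84/RwwJ followed with means of 4.82 and 4.75, and C57BL/6J had rank 4 of the 87 strains with 4.75 ± 0.37 (n = 6). The 4 lowest strains, A/J, BALB/cJ, C3H/HeJ and BXA16/PgnJ, had means of 4.03 to 4.05. Mmp14 was highest in BXD84/RwwJ, with 6.43, 6.55, 6.69 and 6.76, and lowest in BXD75/RwwJ, with 4.81, 5.02, 5.28 and 5.36. These 2 strains of one RI set did not overlap. Next to them stood AXB13/PgnJ (mean 6.41) and BXD51/RwwJ (6.34) at the high end and BXA16/PgnJ (5.16) and LP/J (5.31) at the low end.

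Adamts1 was highest in LG/J (7.64, 7.66, 7.83 and 8.27) and lowest in BXD75/RwwJ (5.37, 5.86, 5.89 and 6.11). Every LG/J mouse was above every BXD75/RwwJ mouse. SM/J (mean 7.49) and BXA24/PgnJ (7.46) came after LG/J, and MA/MyJ (5.93) and SEA/GnJ (6.09) were next above BXD75/RwwJ. Adamts7 ranged from 2.88 in BXD75/RwwJ, 2.94 in CXB6/ByJ and 2.96 in RIIIS/J to 3.36 in AXB2/PgnJ, 3.37 in BXD84/RwwJ and 3.46 in A/J, close to the level of no signal throughout. Timp1 was highest in LG/J, which gave 5.81, 6.27, 6.66 and 6.95. The next strain with at least 3 arrays, BXA24/PgnJ, had 4.95, 4.99, 5.44 and 6.02 and overlapped with LG/J, BXD84/RwwJ averaged 4.80, and the median of all strains was 4.11. The single mouse of BXA1/PgnJ had 5.74. BXA16/PgnJ was lowest with 3.34, 3.46 and 3.62, followed by AXB2/PgnJ (mean 3.50) and A/J (3.56). Timp2 was highest in BXD84/RwwJ (9.81, 10.04, 10.21 and 10.33) and LG/J (9.72, 9.80, 10.28 and 10.51). It was lowest in AXB15/PgnJ (8.80, 8.83, 8.84 and 8.89), with no overlap with either strain. BXD61/RwwJ had rank 3 with a mean of 10.005, and BXA16/PgnJ (8.93) and A/J (8.99) were next to AXB15/PgnJ. Timp3 was highest in AKR/J (9.94, 10.22, 10.61 and 10.75) and lowest in FVB/NJ (8.12, 8.56, 8.83 and 8.95), the strain with the most Mmp2. CXB2/ByJ (mean 10.32) and BXA2/PgnJ (10.31) followed AKR/J, and BXD75/RwwJ (8.79) and BXD21/TyJ (8.92) were next to FVB/NJ.

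**Figure D1:**
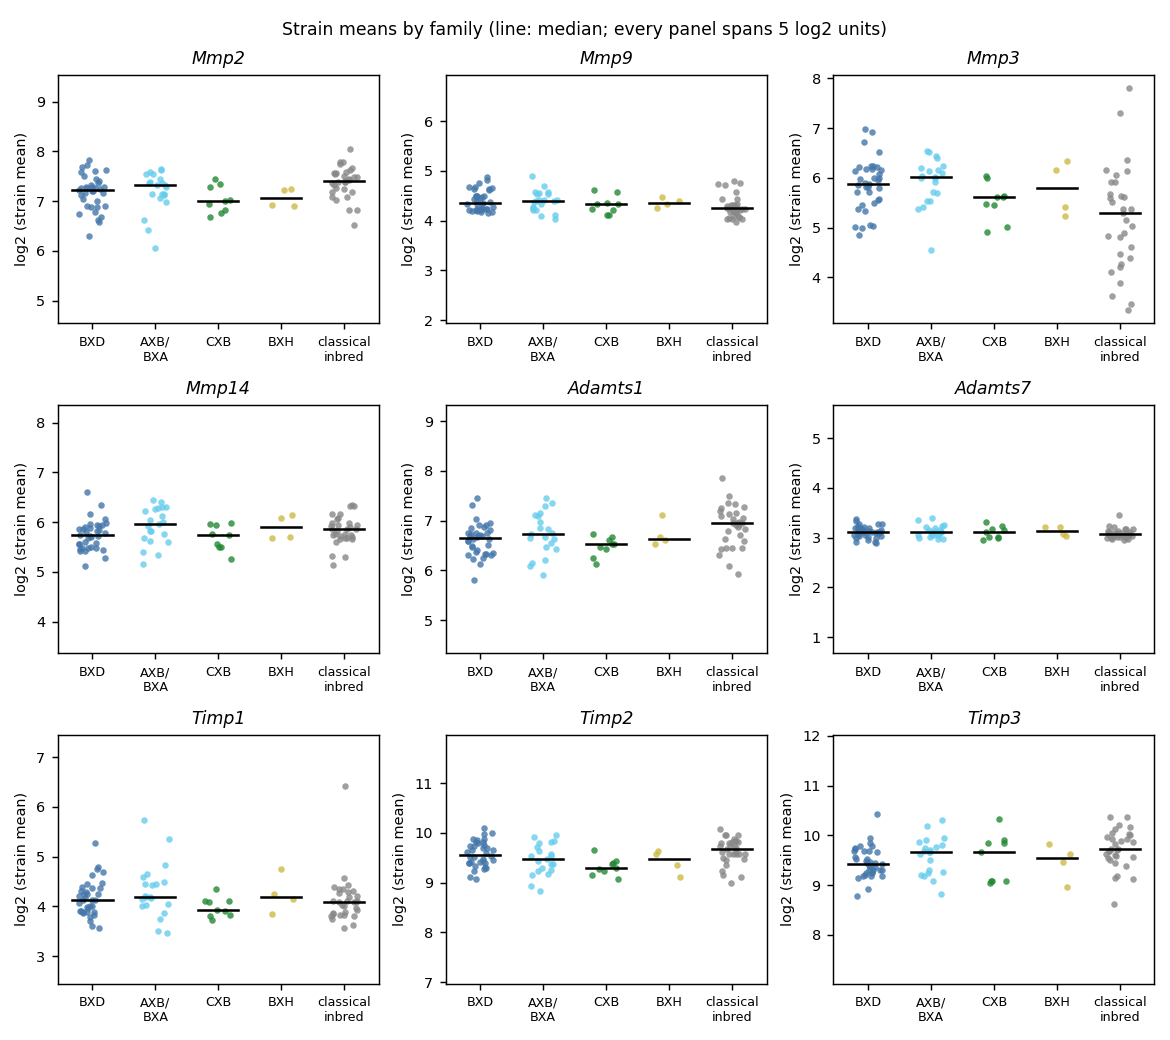
Mean log2 value of each strain (1 point per strain) for the 9 measured genes, by strain family, with the family median as a line; every panel spans 5 log2 units. Mmp3 in the classical inbred strains covers 3.35 to 7.81, and 1 classical inbred strain, LG/J, stands at 6.42 in Timp1.

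Some strains recurred at the ends of these rankings, from which Adamts7 is left out here because its values lay at the level of no signal. LG/J was among the 3 highest of 87 strains for 4 genes (Mmp3, Adamts1, Timp1 and Timp2), and BXD84/RwwJ likewise for 4 (Mmp9, Mmp14, Timp1 and Timp2). BXA16/PgnJ was among the 3 lowest for 5 genes (Mmp2, Mmp9, Mmp14, Timp1 and Timp2) and BXD75/RwwJ for 3 (Mmp14, Adamts1 and Timp3). Cell type markers differed in these strains as well. LG/J had the highest smooth muscle level of the 87 strains (9.56 to 10.3 per array) and the lowest brown adipocyte level (11.6 to 11.8). BXD84/RwwJ had rank 3 in endothelial markers (7.34 to 8.12, 8 of 8 measured) and rank 7 in macrophage markers (6.30 to 7.11, 11 of 11). In adventitial fibroblast markers LG/J had rank 12 and BXD84/RwwJ rank 13. BXA16/PgnJ had 6.51 to 7.62 in smooth muscle (rank 74) and 6.42 to 6.77 in adventitial fibroblast markers (rank 82, 6 of 6 measured). BXD75/RwwJ had 6.20 to 7.42 (rank 83) and 6.35 to 6.83 (rank 81). The part of these markers in the rankings was not tested. Smooth muscle and brown adipocyte scores were followed by 58.1% and 57.2% of all probe sets. How often these strains stood at the ends over all probe sets was not counted. The recurrence therefore cannot be read as particular to these genes. None of these 4 strains had an array high in hepatocyte markers.

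Levels were also compared among the 5 strain families, by limma on strain means. Mmp3 was the only one of the 9 genes past the threshold (adjusted p = 0.0201), against 8.09% of all probe sets, a share near 1 in 9. That call was lost with strains of at least 3 arrays, with the number of arrays as weight and without arrays high in hepatocyte markers. Strain means averaged 5.93 ± 0.47 in the AXB/BXA set (SD, n = 21), 5.86 ± 0.52 in the BXD set (n = 36), 5.79 ± 0.55 in the BXH set (n = 4) and 5.53 ± 0.38 in the CXB set (n = 9), against 5.19 ± 1.04 in the classical inbred strains (n = 31). The difference from the classical inbred strains was 0.74 ± 0.20 log2 units (SE) in AXB/BXA (adjusted p = 0.0163, background 4.24%) and 0.67 ± 0.17 in BXD (adjusted p = 0.00651, background 9.34%). The ranges overlapped, because the classical inbred strains held both the highest and the lowest strains. Neither difference passed when strains with under 3 arrays were left out (AXB/BXA 0.58, adjusted p = 0.129; BXD 0.51, adjusted p = 0.0617), nor did that of AXB/BXA without the arrays high in hepatocyte markers (0.63, adjusted p = 0.0531).

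In the BXD set Adamts1 was at 6.62 ± 0.32, against 6.88 ± 0.42 in the classical inbred strains (difference -0.27 ± 0.09, adjusted p = 0.0426 by limma), and Timp3 at 9.46 ± 0.31, against 9.73 ± 0.39 (difference -0.27 ± 0.09, adjusted p = 0.0381). The F test over all families passed for neither gene (adjusted p = 0.113 for Adamts1 and 0.227 for Timp3). Smooth muscle markers moved with both genes, as given further on, and with smooth muscle, macrophage, adipocyte and hepatocyte scores as covariates neither call held (Adamts1 -0.15, adjusted p = 0.212; Timp3 -0.14, adjusted p = 0.197). Both calls were also lost with medians per strain (adjusted p = 0.0548 for each) and with strains of at least 3 arrays (adjusted p = 0.0965 and 0.0507), and that of Adamts1 with the number of arrays as weight (adjusted p = 0.0590) and without the arrays high in hepatocyte markers (adjusted p = 0.0797). No gene of the set was called in the CXB set (0.0288% of all probe sets) or in the BXH set (0.00665%). At an unadjusted p under 0.05 by limma, Adamts1, Mmp2 and Timp2 were lower in the 9 CXB strains than in the classical inbred strains. Their differences were -0.40 ± 0.14, -0.35 ± 0.13 and -0.32 ± 0.10 (SE), with adjusted p of 0.178 to 0.265.

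The F1 animals of 5 strains related to the parents of the RI sets were then compared with those of C57BL/6J, all 5 sharing the same 6 C57BL/6J mice. Mmp9 was lower than in C57BL/6J in 4 of the 5 crosses, Mmp3 in 2, and Timp3 was higher in 2 and Adamts1 in 1. These were 9 of 45 comparisons past the threshold by limma, adjusted over all probe sets. Of all probe sets, 4.94% were called for A/J, 3.69% for DBA/2J, 8.91% for C3H/HeJ, 6.31% for BALB/cJ and 1.82% for BALB/cByJ, and no gene of the set was called for BALB/cByJ (3 at an unadjusted p under 0.05). These 3 were Timp3 (0.75 ± 0.27, SE), Adamts1 (0.60 ± 0.28) and Mmp9 (-0.49 ± 0.19), from 3 BALB/cByJ mice (adjusted p of 0.138 to 0.286).

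Mmp9 had values of 3.95, 4.10 and 4.11 in A/J and 4.01, 4.01, 4.03 and 4.09 in BALB/cJ. In the 8 C3H/HeJ mice it ran from 3.78 over a median of 4.01 to 4.28, and in the 5 DBA/2J mice it was 4.05, 4.07, 4.10, 4.30 and 4.64. The 6 C57BL/6J mice had 4.28 to 5.36, with a median of 4.75. A/J, BALB/cJ and C3H/HeJ mice all lay below every C57BL/6J mouse, although the highest C3H/HeJ and the lowest C57BL/6J mouse were nearly equal, and DBA/2J overlapped with C57BL/6J. The differences were -0.70 ± 0.19 for A/J (SE, adjusted p = 0.0135), -0.72 ± 0.18 for BALB/cJ (adjusted p = 0.00353), -0.72 ± 0.15 for C3H/HeJ (adjusted p = 1.6e-04) and -0.52 ± 0.17 for DBA/2J (adjusted p = 0.0498). The first 3 correspond to about 1.62, 1.64 and 1.65-fold lower intensity. Without C57BL/6J replicate 1, which was high in hepatocyte markers and had the highest Mmp9, the A/J and DBA/2J calls were lost (-0.58, adjusted p = 0.0797, and -0.40, adjusted p = 0.216), and the A/J call was also lost without A/J replicate 3 (-0.65, adjusted p = 0.102). Macrophage markers were lower in A/J as well (5.58 to 5.73, against 6.10 to 7.39 in C57BL/6J), and with smooth muscle, macrophage, adipocyte and hepatocyte scores as covariates the A/J difference was -0.40 (adjusted p = 0.223). With the same covariates the other calls held, in DBA/2J (-0.50, adjusted p = 0.0361), C3H/HeJ (-0.57, adjusted p = 0.00464) and BALB/cJ (-0.58, adjusted p = 0.0197). Adventitial fibroblast markers, which were not among these covariates, were at 6.49 to 6.64 in A/J, 6.69 to 6.90 in DBA/2J, 6.65 to 7.18 in C3H/HeJ and 6.67 to 7.02 in BALB/cJ, against 6.80 to 7.73 in C57BL/6J, and their part in the Mmp9 differences was not tested. The DBA/2J call, close to the threshold, was also lost without any one of DBA/2J replicates 1 to 4 (-0.47 to -0.54) and of C57BL/6J replicates 2, 3 and 6 (-0.50 to -0.53), and without single mice of the other crosses, which left the difference at -0.52 (adjusted p up to 0.0506). On the second Mmp9 probe set, which lay at the level of no signal, only the C3H/HeJ call held.

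Mmp3 was 4.26, 4.89 and 5.29 in A/J, below all C57BL/6J mice (5.66, 5.84, 6.01, 6.16, 6.58 and 6.74), a difference of -1.35 ± 0.41 (adjusted p = 0.0311 by limma; exact permutation p = 0.0119, the smallest that 3 against 6 mice allow). In DBA/2J it was 4.30, 4.50, 5.10, 5.47 and 5.81, a difference of -1.13 ± 0.35 (adjusted p = 0.0443). These are 2.55 and 2.19-fold lower intensities. The other crosses lay between these and C57BL/6J, with means of 5.37 ± 0.53 in C3H/HeJ (n = 8), 5.65 ± 0.22 in BALB/cByJ (n = 3) and 5.92 ± 0.34 in BALB/cJ (n = 4), and did not pass the threshold. The A/J call was lost without any one of A/J replicates 2 and 3 and C57BL/6J replicates 5 and 6 (-1.07 to -1.39), and that of DBA/2J without any one of DBA/2J replicates 1 to 3 and C57BL/6J replicates 1, 3, 5 and 6 (-0.95 to -1.16). DBA/2J replicates 1 and 2 and C57BL/6J replicate 1 were high in hepatocyte markers, and without such arrays the DBA/2J difference was -1.003 (adjusted p = 0.327). The DBA/2J call was also lost under quantile normalization (-1.09, adjusted p = 0.0618), and that of A/J with the 4 cell type scores as covariates (-1.03, adjusted p = 0.0801), with which that of DBA/2J held (-1.49, adjusted p = 3.3e-04).

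Timp3, the matrix-bound inhibitor, rose in C3H/HeJ, whose 8 mice had 9.88 to 10.31 with a median of 10.01, all above the C57BL/6J mice (8.55, 8.59, 9.02, 9.41, 9.59 and 9.68). The difference was 0.91 ± 0.21 (adjusted p = 9.0e-04). BALB/cJ had 9.60, 10.01, 10.02 and 10.24, with 1 mouse within the C57BL/6J range, and a difference of 0.83 ± 0.25 (adjusted p = 0.0248). The BALB/cByJ mice, with 9.87, 9.88 and 9.93, also lay above every C57BL/6J mouse, although that difference was not called. On the 3 other Timp3 probe sets the BALB/cByJ difference was only 0.06 to 0.31. There the mice of both BALB/cByJ and C3H/HeJ overlapped with those of C57BL/6J. Adamts1 was 0.64 ± 0.21 higher in C3H/HeJ (adjusted p = 0.0374), with 6.47 to 7.76 against 5.53 to 6.996 in C57BL/6J. Smooth muscle markers moved the same way, at 8.25 to 9.46 in C3H/HeJ and 8.66 to 9.28 in BALB/cJ, against 5.88 to 8.46 in C57BL/6J. With the 4 cell type scores as covariates the Timp3 difference was 0.43 in C3H/HeJ (adjusted p = 0.112) and 0.21 in BALB/cJ (adjusted p = 0.578), and that of Adamts1 was 0.15 (adjusted p = 0.754). The Timp3 call of BALB/cJ did not hold on any of the 3 other Timp3 probe sets (0.39 to 0.47). That of C3H/HeJ was lost on 1 of them (0.32, adjusted p = 0.301). Without C57BL/6J replicate 1 the calls of Timp3 in BALB/cJ (0.72, adjusted p = 0.0879) and of Adamts1 in C3H/HeJ (0.52, adjusted p = 0.177) were lost, as they were without C57BL/6J replicate 2 (0.71, adjusted p = 0.0856, and 0.45, adjusted p = 0.265). The Timp3 call was also lost without BALB/cJ replicate 2, 3 or 4 (0.74 to 0.81), and that of Adamts1 without C3H/HeJ replicate 4, 6 or 8 (0.54 to 0.60).

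Timp2 was 8.99 ± 0.19 in A/J and 9.57 ± 0.33 in C57BL/6J, a difference of -0.59 ± 0.19 that missed the threshold (adjusted p = 0.0510). On 3 of its 4 other probe sets the difference passed (-0.59 to -0.76).

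**Figure D2:**
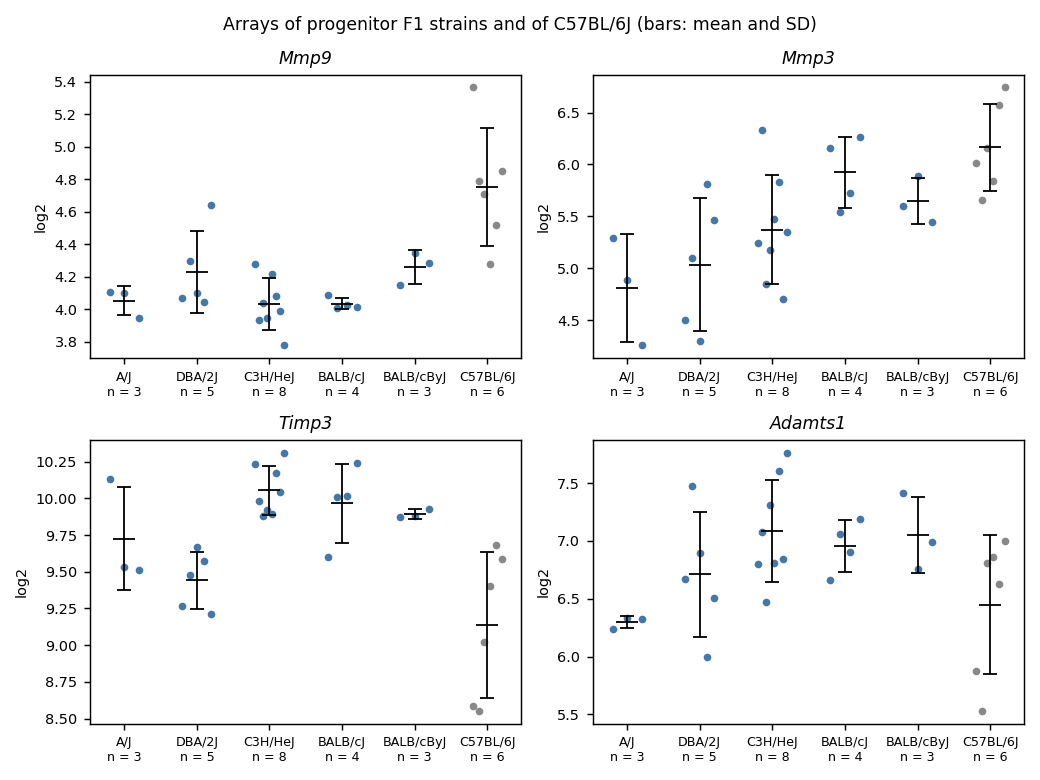
Log2 values of Mmp9, Mmp3, Timp3 and Adamts1 in each mouse (points) of the 5 crosses and of C57BL/6J, with the mean and SD. All A/J, C3H/HeJ and BALB/cJ mice lie below the 6 C57BL/6J mice in Mmp9, and all C3H/HeJ and BALB/cByJ mice above them in Timp3.

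Of the 36 pairs among the 9 genes, 18 were positively correlated across strains and none negatively at the threshold used. Correlations were computed over the means of all strains by biweight midcorrelation (bicor), which gives outlying strains less weight, and each gene was tested against all probe sets with Benjamini-Hochberg adjustment. A pair was called only if it passed in the tests of both of its genes. The share of all probe sets that follow a gene differs widely between genes and must be read beside these pairs. It was 0.0886% for Mmp3, 2.21% for Adamts7, 7.72% for Mmp9, 16.0% for Timp1, 45.7% for Mmp2, 46.0% for Mmp14, 48.4% for Timp3, 53.3% for Adamts1 and 54.4% for Timp2. For Timp3, Adamts1 and Timp2, called with 4, 5 and 5 of the 8 other genes, the share of called pairs was close to that of all probe sets. The strains share haplotypes within each RI set and 1 C57BL/6J parent throughout, so that they are not fully independent.

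Mmp3 and Timp1 formed the pair with the lowest background, since only 40 of 45140 probe sets followed Mmp3. Their bicor was 0.49 (adjusted p = 8.8e-04), with r = 0.50 and rho = 0.53 (permutation p = 1e-05 each, the smallest that 100000 permutations give), and r was 0.53 without the 2 strains farthest from the median of Mmp3. Within families r was 0.67 in BXD, 0.65 in AXB/BXA, 0.53 in CXB and 0.44 in the classical inbred strains. Between mice of one strain r was 0.60 (360 arrays). The bicor was 0.45 with 4 cell type scores removed, which were smooth muscle, macrophage, adipocyte and hepatocyte (adjusted p = 0.00609). The call was lost without the AXB/BXA set (0.38, adjusted p = 0.144) and without the BXD set (0.40, adjusted p = 0.382). LG/J was highest in both genes.

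Among the other pairs, Mmp2 and Timp2 were closest, with a bicor of 0.79 (adjusted p = 2.9e-19), r = 0.78 and rho = 0.81 (permutation p = 1e-05 each), and r = 0.77 without the 2 farthest strains. Within families r was 0.74 in BXD, 0.88 in AXB/BXA, 0.57 in CXB and 0.77 in the classical inbred strains, and it was 0.67 between mice of one strain. With the cell type scores removed the bicor was 0.69 (adjusted p = 1.9e-11). Mmp14, which acts with both of them on the cell surface, followed Timp2 (0.65, adjusted p = 2.3e-10), Mmp2 (0.56, adjusted p = 2.1e-07) and Timp1 (0.68, adjusted p = 1.1e-10). With the cell type scores removed its bicor with Timp2 was 0.38 (adjusted p = 0.00942) and with Timp1 0.40 (adjusted p = 0.0163), whereas that with Mmp2 no longer passed (0.27, adjusted p = 0.0666). Pearson's r of these 3 pairs was 0.66, 0.55 and 0.52, and rho was 0.65, 0.57 and 0.68 (permutation p = 1e-05 each). The adventitial fibroblast score, which Mmp2, Timp2, Mmp14 and Timp1 followed with bicors of 0.49 to 0.59, was not among the scores removed. Its part in these pairs was not tested.

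Timp1 and Timp2 had a bicor of 0.61 (adjusted p = 1.8e-08), Timp2 and Timp3 of 0.46 (adjusted p = 1.6e-05), and Timp1 and Timp3 of 0.23 (adjusted p = 0.0884). With the cell type scores removed the first 2 no longer passed (0.35, adjusted p = 0.0642, and 0.19, adjusted p = 0.288). Adamts1 followed Timp2 (0.59, adjusted p = 2.5e-09), Timp3 (0.57, adjusted p = 2.0e-08) and Mmp2 (0.54, adjusted p = 2.0e-07). Of these Adamts1 pairs, the one with Timp3 was lost with the cell type scores removed (0.29, adjusted p = 0.0836). Mmp9 was called with Mmp14 (0.45), Timp1 (0.38) and Adamts7 (0.35), pairs that had r of 0.11, 0.10 and 0.02 between mice of one strain. Mmp9 and Timp3 had a bicor of -0.28 (adjusted p = 0.0533). Mmp9 and Mmp3, both lower in A/J and DBA/2J than in C57BL/6J, had a bicor of 0.16 over all strains (adjusted p = 0.702), and the 2 gelatinases 0.18 (adjusted p = 0.250). With the 4 cell type scores removed 8 of the 18 pairs held, and without LG/J all 18 did. The pair of Mmp9 and Adamts7 was the least stable, since it was lost without the BXD set (0.18, adjusted p = 0.593) and without the arrays high in hepatocyte markers (0.29, adjusted p = 0.110).

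**Figure D3:**
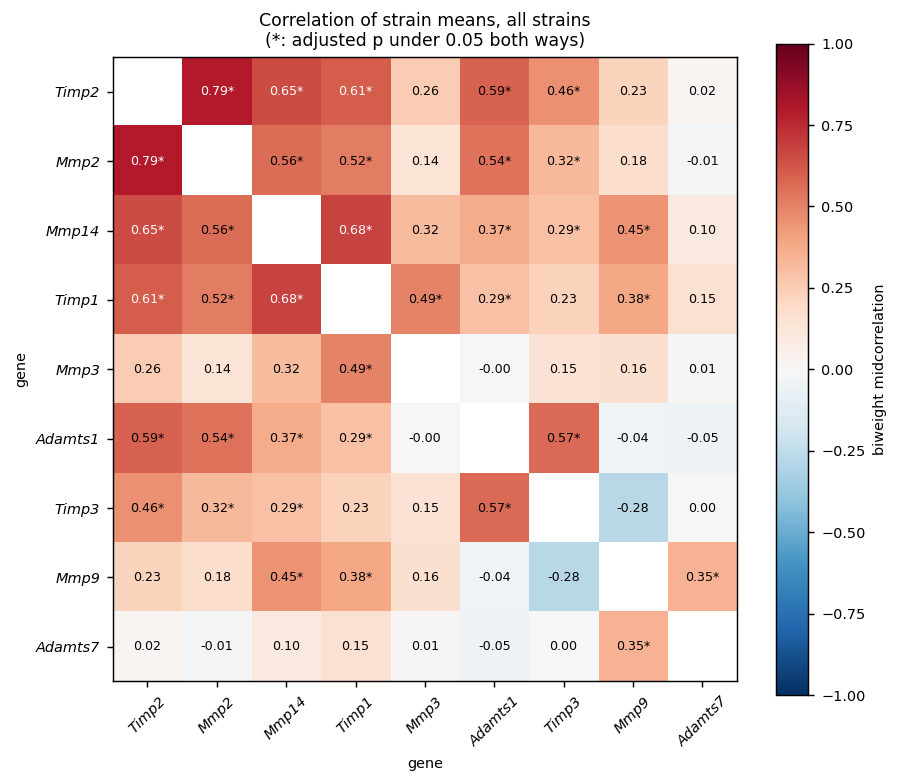
Bicor of the strain means of each pair of genes over all strains, from -1 (blue) to 1 (red). An asterisk marks pairs with an adjusted p under 0.05 in the tests of both genes. Mmp2 with Timp2 is the highest at 0.79, and Adamts7 has 1 marked pair.

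**Figure D4:**
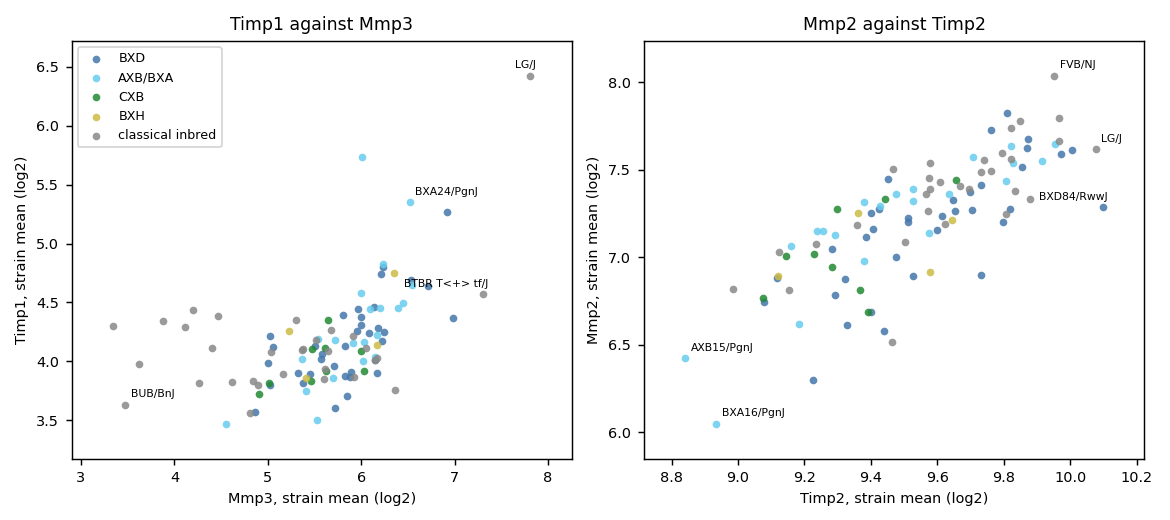
Strain means (log2, 1 point per strain, coloured by family) of Timp1 against Mmp3 and of Mmp2 against Timp2. LG/J lies at 7.81 in Mmp3 and 6.42 in Timp1, and FVB/NJ at 8.04 in Mmp2.

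The 3 genes closest to each member by bicor over all strains were taken from 1 probe set per gene. Mmp2 was followed by Col6a2 (0.82) and Col6a1 (0.81), which encode chains of collagen VI, and by Bmp1 (0.80), a protease that processes procollagen. Timp2 was followed by Antxr1 (0.90), a collagen receptor, by Bmp1 (0.87) and by Twsg1 (0.87), a modulator of BMP signalling. Mmp14 was closest to Scara3 (0.76), Tmem165 (0.70) and Antxr1 (0.69), and Timp1 to Kdelr3 (0.69), a retention receptor of the secretory pathway, Mmp14 (0.68) and Scara3 (0.66). Within the BXD, AXB/BXA and classical inbred families, r of these pairs lay between 0.37 (Timp1 with Mmp14 in the classical inbred strains) and 0.95 (Mmp2 with Bmp1 in AXB/BXA), and in the CXB set between 0.20 (Timp1 with Scara3) and 0.97 (Timp2 with Antxr1). Scara3 lies on chromosome 14, 11.5 Mb from Mmp14, and the part of this in their correlation was not tested.

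Adamts1 was closest to Cttnbp2nl (0.78), Klf2 (0.74), a transcription factor of endothelial cells that responds to flow, and Dusp8 (0.74), a phosphatase of MAP kinases. Timp3 was closest to Cdh13 (0.79), T-cadherin, Cnn3 (0.78), a calponin, and Tnrc6a (0.77). Mmp9 was closest to Anpep (0.54), Fcrls (0.53) and 3830406C13Rik (0.52), and Anpep averaged 2.85, within the level of no signal. The 3 genes closest to Adamts7, Cd96 (0.52), Gm12863 (0.50) and Arhgap22 (0.49), all averaged 2.34 to 2.85, also within it.

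Mmp3, although it varied most among strains, was followed closely by few genes. Gabra3, a GABA receptor subunit, had a bicor of 0.73 (adjusted p = 6.6e-14), Stbd1, a glycogen-binding protein, 0.67 and Vwc2 0.65. They lie on chromosomes X, 5 and 11, whereas Mmp3 lies on chromosome 9. In the classical inbred strains r with Mmp3 was 0.86 for Gabra3, 0.84 for Vwc2 and 0.76 for Stbd1, in the BXD set 0.66, 0.49 and 0.54, and in the AXB/BXA set 0.74, 0.53 and 0.48. In the 9 CXB strains it was 0.22, 0.11 and 0.25. Between mice of one strain r was 0.52, 0.47 and 0.37.

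Each gene was also compared with scores of 13 cell type marker lists over the strains, each score being the mean standardized level of the list. Smooth muscle markers were followed by 6 of the 9 genes, against 58.1% of all probe sets. Timp3 was highest with a bicor of 0.71 (adjusted p = 2.4e-15), followed by Timp2 (0.61), Adamts1 (0.61), Mmp14 (0.42), Mmp2 (0.39) and Timp1 (0.31). The adventitial fibroblast score, which 7.16% of all probe sets followed, was followed by 5 genes: Mmp2 (0.59), Timp2 (0.59), Mmp14 (0.52), Timp1 (0.49) and Mmp9 (0.34), with adjusted p of 2.1e-08 to 0.0135. Timp3 and Adamts1 had bicors of 0.01 and 0.13 with it. The fibroblast call of Mmp9 was lost without the AXB/BXA set (0.32, adjusted p = 0.0615) and without the BXD set (0.26, adjusted p = 0.245). Beside these called genes, Mmp3 had 0.27 with fibroblast markers (adjusted p = 0.0685) and 0.17 with smooth muscle markers (adjusted p = 0.143).

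Macrophage markers were followed positively by Timp1 (0.33, adjusted p = 0.0123) and Mmp9 (0.31, adjusted p = 0.0224) and negatively by Timp3 (-0.41, adjusted p = 0.00138), against 11.0% of all probe sets. The Mmp9 call was lost under 5 alternatives, which were medians per strain (0.26, adjusted p = 0.0852) and the removal of hepatocyte-high arrays (0.23, adjusted p = 0.122), of the AXB/BXA set (0.26, adjusted p = 0.128), of the BXD set (0.26, adjusted p = 0.231) or of the classical inbred strains (0.29, adjusted p = 0.164). Without the classical inbred strains the calls of Timp1 (0.33, adjusted p = 0.101) and Timp3 (-0.32, adjusted p = 0.105) were lost too, and between mice of one strain that of Timp3 (-0.09, adjusted p = 0.428). The foam cell score (5 of 6 markers measured) was followed by Timp1 alone (0.39, adjusted p = 0.00965, background 2.99%). For Timp1, r with the macrophage score was 0.74 in the AXB/BXA set and 0.08 in the BXD set, and without the AXB/BXA set neither Timp1 call held (macrophage 0.24, adjusted p = 0.157; foam cell 0.30, adjusted p = 0.0731). Endothelial markers were followed by 6 genes, highest Adamts1 (0.61) and Timp3 (0.55), against 57.6% of all probe sets. Brown adipocyte markers were followed negatively by 6 genes (-0.34 to -0.62, background 57.2%), adipocyte markers by 3 (-0.25 to -0.26, background 30.3%) and cartilage markers by 5 (-0.24 to -0.48, background 52.5%), and the cartilage markers never exceeded 3.13 on average in any array. The 3 adipocyte calls were lost with strain means centred within each family and between mice of one strain. No gene was called with hepatocyte, skeletal muscle, neutrophil, lymphocyte or erythroid scores (backgrounds 2.96%, 4.38%, 0.00886%, 2.59% and 0.0908%). Mmp3 and Adamts7 were called with none of the 13 scores.

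**Figure D5:**
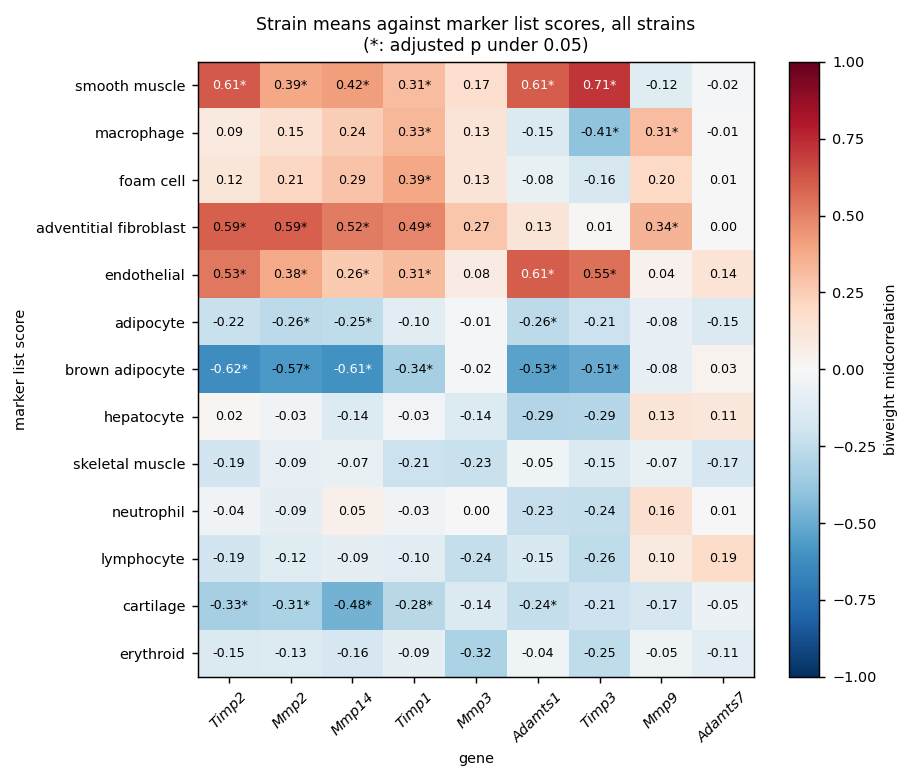
Bicor over all strains between the strain means of each gene (columns) and the score of each marker list (rows); an asterisk marks an adjusted p under 0.05. Timp3 with smooth muscle is highest at 0.71, and the columns of Mmp3 and Adamts7 hold no asterisk.

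Of 50 further genes of the pathway that were measured, out of 63 listed, 44 differed among strains, against 80.6% of all genes. They were 9 of 13 other metalloproteinases, 12 of 12 other ADAMTS genes, 11 of 13 activators and other inhibitors and 12 of 12 matrix substrates, with median shares of variance among strains of 15.5%, 24.7%, 32.3% and 40.3%. Plau, which encodes the plasminogen activator urokinase, had 68.8%, more than any of the 9 genes, with strain means of 2.78 to 5.03. It was followed by the shedding protease Adam17 (52.7%), Col1a1 (51.1%), which encodes a collagen I chain, the elastin gene Eln (49.8%), Col4a1 of the basement membrane (49.7%), Adam15 (47.1%), Adamts10 (46.3%) and Bsg (45.6%), an inducer of metalloproteinases. Eln spanned 4.63 to 8.66 between strain means. Of the neighbours of Mmp3 in the metalloproteinase family, Mmp10 and Mmp13 averaged 2.72 and 2.48, within the level of no signal, and the macrophage elastase Mmp12 averaged 3.16, although its highest strain mean was 5.72.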

How the data were processed

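The authors extracted RNA from the aortas, hybridised it to Affymetrix arrays, read the arrays with GCOS and normalized them with RMA, and the deposited values are log2 intensities, 1 column for each of 366 mice. Program versions, a genome assembly and scan dates are not given in the sources used here. Of 45141 probe sets, 28898 carry 1 gene symbol in the platform annotation used, 551 several and 15692 none, and only the first kind was named. No 2 arrays held identical values. The labels give a strain for each mouse but no batch, and the number of arrays limits the precision. Whether mice of one strain shared a litter is not stated, so that p-values measure the spread between these mice.

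Differences among strains and from C57BL/6J were fitted with limma 3.58.1 (R 4.3.3) in 1 model over the strains with 2 or more arrays (strains as groups), and differences among the 5 families on strain means. p-values were adjusted after Benjamini-Hochberg across the whole array and called under 0.05. Bicor, r and rho were computed over the means of all strains in python 3.11.15 (numpy 2.4.6, scipy 1.17.1, pandas 2.3.3), with 100000 two-sided permutations for r and rho, over 36 pairs and over 117 combinations of a gene and a marker list. r between mice of one strain used deviations from the strain mean. A marker score is the mean of the standardized levels of a list. Arrays more than 3 median absolute deviations, each scaled to the SD of a normal distribution, above the median in hepatocyte markers were called high. The fits and bicor were tested on simulated data.

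The text names all members, for each the 3 highest and 3 lowest strains with at least 3 arrays and the 3 genes of highest bicor, and up to 8 genes of the wider pathway list with the largest shares above that of the median member. Strains and genes named beside these were chosen after their values were seen. The members and lists were chosen with earlier results of these data known. Alternatives were other probe sets of a gene, array weights, quantile normalization, a filter on dim probe sets, leaving out arrays, strains or families, cell type scores as covariates, medians in place of means and other correlations. Lesion sizes were not analysed here.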

Additional observations from a re-analysis of the deposited data

Results flagged for a closer look

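Among groups of 4 to 10 mice of the strains named above, 7 of 77 held a mouse whose gap to the nearest other exceeded Dixon's 95% critical value, and chance gives about 1 in 20. DBA/2J replicate 2 was high in both Mmp2 (7.71, the other mice 7.39 to 7.48) and Timp2 (10.2, the others 9.56 to 9.73), and it was an array high in hepatocyte markers. In Mmp3, BTBR T<+> tf/J replicate 4 was high (8.12, the others 6.99 to 7.08) and BXD40/TyJ replicate 2 was low (6.34, the others 7.14 to 7.28). C57BL/6J replicate 1 was high in Adamts7 (3.41, the others 2.98 to 3.09) and was also high in hepatocyte markers. C3H/HeJ replicate 5 was high in Timp1 (4.74, the others 3.87 to 4.18), and BXD75/RwwJ replicate 3 in Timp3 (9.18, the others 8.63 to 8.68).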

How the results depend on the processing

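No result changed its direction under any alternative run. Of the 45 comparisons with C57BL/6J, 9 were called. Without the arrays high in hepatocyte markers 5 were called, 4 of them among the 9, and leaving out 1 mouse at a time gave 5 (without C57BL/6J replicate 1, 4 of them among the 9) to 10 calls. With cell type scores as covariates 12 were called, 4 of them among the 9. Among the 9 genes, 1 differed among families, and 0 were called with strains of at least 3 arrays, with the number of arrays as weight and without the arrays high in hepatocyte markers, 2 with cell type scores as covariates and 4 with arrays and the strain as a random block, and leaving out 1 BXH or CXB strain at a time gave 1 to 1. With cell type scores removed 9 pairs were called, 8 of them among the 18. Fewer arrays were tested where arrays were left out, and otherwise the cause was not tested. Leaving out LG/J, an alternative chosen after seeing the data, gave 18 pairs and 35 calls with marker scores. No paired analysis was possible because the replicate numbers follow the order of the samples and pair no mice.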
